A study of Rattus norvegicus with 46 samples.

Results

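A set of 10 genes that low oxygen induces in many cell types was followed array by array through a study of rat heart muscle cells given fatty acids: Ankrd37, Slc16a3, Hk2, Pfkfb3, Ldha, Bnip3, P4ha1, Vegfa, Adm and Egln3. They were picked by name as a set of hypoxia-induced genes, with earlier results of these data known. Ankrd37, Slc16a3 and Hk2 were picked because they are high in single arrays, so the levels of these 3 are described here without a test. Of the 10 genes, 9 had a probe among 22517 on the array, each with 1 probe, and no probe matched Egln3, which was not analysed here. The Ankrd37 probe carries the older symbol LOC361149 and was matched by its gene number. Of the 9 genes, 8 were detected in at least 7 of the 46 arrays and stood among the 7182 genes tested. Pfkfb3 was detected in 0 of 46.

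When oxygen is scarce, prolyl hydroxylases no longer mark the transcription factor subunit HIF-1 alpha for destruction, so it accumulates, pairs with its partner and binds short DNA elements beside its target genes. The targets include enzymes and transporters of glycolysis, which yields ATP without oxygen, factors that draw in new vessels, and proteins that trim mitochondria. The heart normally burns mostly fatty acids, and its muscle cells turn to glucose when oxygen is short.

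The cells were heart muscle cells isolated from adult male wild-type Wistar rats, kept overnight on laminin in medium without serum and then treated for 24 h. Every group received 1% defatted bovine serum albumin (BSA), which carries fatty acids in solution. It was given alone to the control group (7 arrays) or loaded with 0.4 mM octanoate (8 arrays), palmitate (8), stearate (8), oleate (8) or linoleate (7). Octanoate, palmitate and stearate are saturated acids of rising chain length, and oleate and linoleate have the chain length of stearate with 1 and 2 double bonds. The labels name no low-oxygen treatment. They number the arrays within each group but do not say whether the numbers stand for animals, cultures or days, so the p-values below rest on the scatter among these arrays alone, and that scatter may be purely technical.

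HIF binds a short core element in the DNA, and 3 promoters are shown because they hold its letters and belong to members described below. The core was searched as ACGTG and as GCGTG on both strands in the 250 bases before each gene's start (RefSeq, GRCr8), and capitals mark the matches. The palindrome CACGTG holds ACGTG on both strands. Ankrd37 lies on chr16:53001257-53001506 (plus strand), Bnip3 on chr1:203154963-203155212 (minus strand) and Ldha on chr1:106507842-106508091 (plus strand).
Ankrd37: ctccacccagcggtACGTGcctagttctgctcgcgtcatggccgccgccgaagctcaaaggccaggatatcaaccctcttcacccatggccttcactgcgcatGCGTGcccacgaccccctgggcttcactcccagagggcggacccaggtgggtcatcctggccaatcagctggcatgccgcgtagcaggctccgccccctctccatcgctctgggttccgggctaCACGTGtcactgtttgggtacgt
Bnip3: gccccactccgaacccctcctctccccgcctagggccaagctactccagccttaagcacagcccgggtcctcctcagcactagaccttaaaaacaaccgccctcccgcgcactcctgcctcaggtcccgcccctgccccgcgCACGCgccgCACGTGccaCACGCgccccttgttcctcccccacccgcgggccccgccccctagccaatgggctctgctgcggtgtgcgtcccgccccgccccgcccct
Ldha: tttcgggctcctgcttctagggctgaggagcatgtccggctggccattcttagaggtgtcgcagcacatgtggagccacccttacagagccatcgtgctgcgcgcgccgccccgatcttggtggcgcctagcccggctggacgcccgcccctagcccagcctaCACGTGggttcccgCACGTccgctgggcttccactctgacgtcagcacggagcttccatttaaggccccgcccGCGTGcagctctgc
The Ankrd37 window held ACGTG 236 bases before the start and the palindrome 23 bases before it, the Bnip3 window held the palindrome 99 bases before, and the Ldha window held it 87 bases before with a further match at 73. ACGTG was found in 4 of 9 windows, the other being that of Pfkfb3, against 16.6% of 33469 rat promoters of the same length. GCGTG was found in 4 of 9, those of Ankrd37, Bnip3, Ldha and P4ha1, against 25.9% of promoters. The windows of Slc16a3, Hk2, Vegfa and Adm held neither. These matches describe letters and were not tested as sites.

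Levels below are background-corrected, quantile-normalised signals on the log2 scale, and each is compared only with the same probe in other arrays. A probe was detected where its detection p-value was under 0.01. The arrays detected 3090 to 7886 of the 22517 probes (13.7% to 35.0%), and within a group the raw signals of any pair of arrays correlated at between 0.88 and 0.992. Of the heart muscle markers, 7 of 8 passed the detection filter. Of the endothelial markers, 0 of 5 passed, with 3 on the array and Cdh5 and Tek detected in no array. Of the macrophage markers 1 of 5 passed, with 3 on the array. Fibroblast markers passed in 3 of 6 cases, with Dcn detected in 46 of 46 arrays and Col1a2 in 45. Among smooth muscle and pericyte markers 1 of 5 passed, with 4 on the array, and that 1, Cspg4, was detected in 39 arrays.

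Ankrd37, an ankyrin repeat protein and one of the most readily HIF-induced genes, ranged over more than 6 log2 units. Its level ran from 6.13 through a median of 7.08 to 8.46 in control arrays, from 7.50 through 8.32 to 12.18 with octanoate and from 7.94 through 8.41 to 12.18 with palmitate. With stearate it ran from 6.85 through 7.78 to 10.44, with oleate from 5.95 through 6.78 to 12.20 and with linoleate from 6.27 through 7.03 to 12.33. By group median the order was palmitate, octanoate, stearate, control, linoleate and oleate, and neighbouring groups overlapped. It was detected in 8 of 8 arrays with octanoate and with palmitate, in 5 of 7 control arrays and in 3 of 7 with linoleate. The mean exceeded that of control by 1.90 ± 0.81 (log2, SE) with octanoate and by 1.96 ± 0.81 with palmitate, and by 0.30 ± 0.81 with oleate. With 1 array left out in turn the oleate difference ran from -0.38 to 0.53 and so changed sign.

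Slc16a3 encodes the transporter MCT4, which exports lactate from glycolytic cells. Most of its levels lay near background: it was detected in 1 of 7 control arrays, 8 of 8 with octanoate and 3 each with the other acids. Control arrays ran from 6.16 through a median of 6.41 to 7.74, octanoate arrays from 6.66 through 7.21 to 11.86 and palmitate arrays from 5.81 through 6.38 to 12.03. Stearate arrays ran from 5.92 through 6.45 to 8.72, oleate arrays from 6.09 through 6.44 to 12.21 and linoleate arrays from 6.03 through 6.27 to 11.94. The medians of all groups but octanoate lay within 0.2 of each other, while the highest array of palmitate, oleate and linoleate stood more than 5 units above the group median. Its SD within groups, 1.90, was the largest of all 7182 genes, where the median gene had 0.44. Its octanoate mean lay 1.64 ± 0.93 (log2, SE) above a control mean made up mostly of levels not above background, and 1.13 to 1.87 above with 1 array left out.

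Hk2 encodes hexokinase 2, which traps glucose in the cell as glucose 6-phosphate. Its level ran from 5.81 through 6.37 to 6.76 in control arrays, from 5.75 through 7.10 to 9.57 with octanoate and from 5.87 through 6.27 to 8.55 with palmitate. With stearate it ran from 5.54 through 6.18 to 7.59, with oleate from 5.60 through 5.79 to 8.36 and with linoleate from 5.53 through 6.22 to 8.40. It was detected in 7 of 8 octanoate arrays and in 1 to 3 arrays of every other group. The octanoate mean was 1.13 ± 0.48 (log2, SE) above control, where 1 of 7 arrays detected it.

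**Figure D1:**
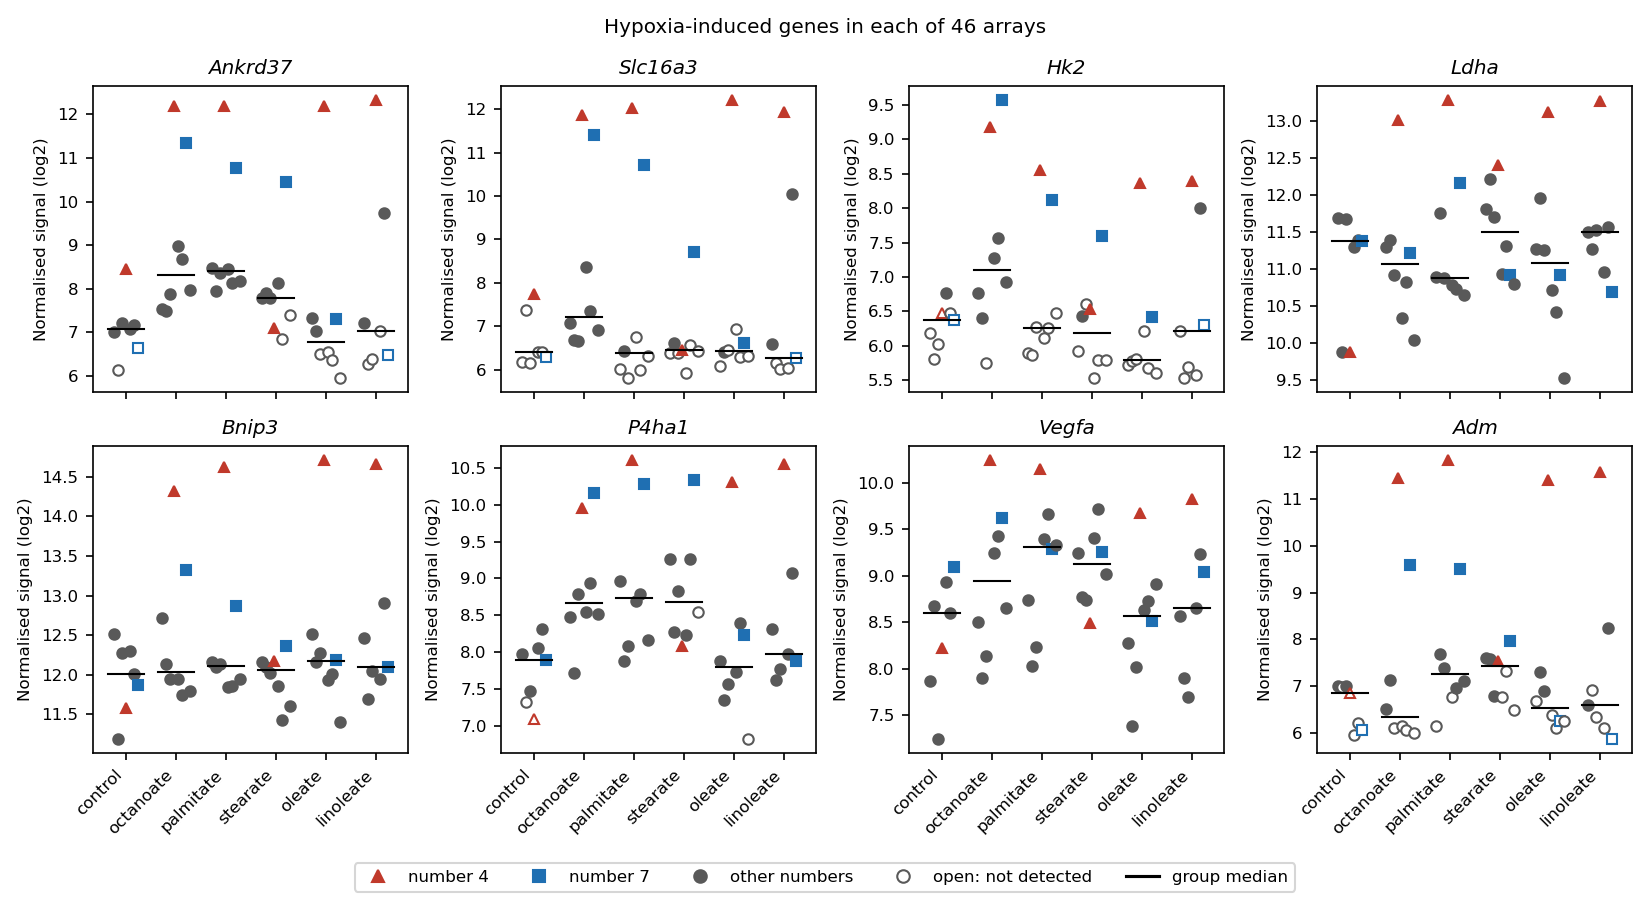
Normalised log2 signal (vertical axis) of 8 hypoxia-induced genes in 46 arrays by group (horizontal axis); each point is 1 array, triangles are arrays numbered 4, squares arrays numbered 7, open symbols were not detected and bars are group medians. The triangles of octanoate, palmitate, oleate and linoleate stand at or near the top of every panel, at 12.18 to 12.33 for Ankrd37, while those of control and stearate do not.

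Ldha encodes the A subunit of lactate dehydrogenase, which turns pyruvate into lactate. It was detected in all 46 arrays. Its level ran from 9.88 through 11.39 to 11.70 in control arrays, from 10.05 through 11.07 to 13.02 with octanoate and from 10.66 through 10.89 to 13.29 with palmitate. With stearate it ran from 10.80 through 11.51 to 12.41, with oleate from 9.53 through 11.09 to 13.13 and with linoleate from 10.69 through 11.51 to 13.27. Medians of the groups differed by less than the range within any of them. Pfkfb3, which makes the activator of phosphofructokinase, had raw signals of 102.3 to 214.8 and was not well above background in any array, so no level or change is given.

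Bnip3 encodes a mitochondrial protein that marks the organelle for removal. Its level ran from 11.19 through 12.01 to 12.51 in control arrays, from 11.74 through 12.03 to 14.32 with octanoate and from 11.84 through 12.11 to 14.62 with palmitate. With stearate it ran from 11.43 through 12.06 to 12.36, with oleate from 11.40 through 12.17 to 14.71 and with linoleate from 11.69 through 12.10 to 14.66. The 6 medians lay between 12.01 and 12.17.

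P4ha1 encodes the catalytic subunit of the enzyme that hydroxylates proline in collagen. Its level ran from 7.10 through 7.90 to 8.32 in control arrays, from 7.72 through 8.67 to 10.16 with octanoate and from 7.88 through 8.74 to 10.60 with palmitate. With stearate it ran from 8.08 through 8.69 to 10.33, with oleate from 6.83 through 7.81 to 10.31 and with linoleate from 7.63 through 7.97 to 10.55. The medians of octanoate, palmitate and stearate stood together above those of linoleate, control and oleate, and the ranges overlapped.

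The secreted members were Vegfa, the main growth factor of blood vessels, and Adm, the precursor of the vasodilator peptide adrenomedullin. Vegfa was detected in all 46 arrays and ran from 7.25 through 8.60 to 9.09 in control arrays, from 7.90 through 8.95 to 10.24 with octanoate and from 8.03 through 9.31 to 10.15 with palmitate. With stearate Vegfa ran from 8.49 through 9.13 to 9.72, with oleate from 7.39 through 8.57 to 9.67 and with linoleate from 7.70 through 8.65 to 9.82. It varied least within groups (SD 0.67). Adm was detected in 23 arrays and ran from 5.95 through 6.85 to 7.01 in control arrays, from 6.0 through 6.34 to 11.46 with octanoate and from 6.16 through 7.26 to 11.83 with palmitate. With stearate Adm ran from 6.49 through 7.44 to 7.96, with oleate from 6.11 through 6.54 to 11.42 and with linoleate from 5.88 through 6.60 to 11.57. Its SD within groups was 1.60 (rank 6 of 7182 genes), and that of Ankrd37 was 1.66 (rank 3).

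The same few arrays carried the high values. The arrays numbered 4 of octanoate, palmitate, oleate and linoleate were the highest of their group for Ankrd37, Slc16a3, Ldha, Bnip3, Vegfa and Adm. For Ankrd37 they read 12.18, 12.18, 12.20 and 12.33. With octanoate and palmitate this is 18.6-fold and 14.0-fold above the median of the other arrays of the group, all of which detected it. Where most of the other arrays did not detect a gene, only a lower bound is given, with those arrays raised to the lowest detected signal of each array. It is at least 29.9-fold with oleate and at least 34.3-fold with linoleate, where 3 of 7 and 2 of 6 others detected Ankrd37. Its 4 levels lie within 0.2 of each other although the fatty acid differed. For Slc16a3 they read 11.86, 12.03, 12.21 and 11.94, which is 27.7-fold above the others with octanoate and at least 34.5-fold, 40.1-fold and 27.3-fold with palmitate, oleate and linoleate, where 2 others of each group detected it. Adm stood 26.2-fold above the others with palmitate, and at least 24.6-fold with octanoate, 18.6-fold with oleate and 21.1-fold with linoleate, where 2 or 3 others detected it. Bnip3 stood 5.19-fold, 5.78-fold, 5.86-fold and 6.02-fold above, and Ldha 4.29-fold, 5.30-fold, 4.65-fold and 3.66-fold. In raw signal the oleate array read 10932 for Ankrd37 and 10959 for Slc16a3, against medians over all arrays of 365.8 and 243.5. These folds describe arrays that were noticed for their level, and no test is attached.

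The number alone did not mark the pattern. The stearate array numbered 4 read 7.10 for Ankrd37 and 6.46 for Slc16a3, below the other 7 arrays' median for the first, although its Ldha level of 12.41 was the highest of its group. The control array numbered 4 was the highest of its group for Ankrd37 (8.46) and Slc16a3 (7.74), while its P4ha1 level of 7.10 was the lowest and its Ldha level of 9.89 the second lowest. Its raw signals were 679 for Ankrd37 and 457 for Slc16a3.

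A second tier of arrays raised some members and not others. The octanoate array numbered 7 read 11.35 for Ankrd37, 11.41 for Slc16a3, 9.60 for Adm and 9.57 for Hk2, the last being the highest normalised Hk2 level of all arrays. Its raw Hk2 signal was 610, below 760, 733, 841 and 666 in the arrays numbered 4 of octanoate, palmitate, oleate and linoleate. Its Ldha level, 11.22, was 0.31 above the median of the other octanoate arrays. The palmitate array numbered 7 read 10.78 for Ankrd37, 10.72 for Slc16a3 and 9.51 for Adm, and its Ldha level of 12.17 stood 2.44-fold above the others. The linoleate array numbered 6 read 9.74 for Ankrd37 and 10.05 for Slc16a3, with Ldha at 0.17 above the median of the others. P4ha1 did not separate the tiers with octanoate and palmitate, at 10.16 and 10.28 in the arrays numbered 7 beside 9.96 and 10.60 in those numbered 4. The arrays numbered 7 of control, oleate and linoleate read 6.64, 7.3 and 6.49 for Ankrd37, within 0.8 of the median of the other arrays of the group.

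For the stearate array numbered 7, raw and normalised signals ranked differently. It read 10.44 for Ankrd37 and 8.72 for Slc16a3, the highest of its group in both. Its raw signal of 620.0 for Ankrd37 was also the highest of the group, but its raw signal of 270.1 for Slc16a3 lay above 4 of the 7 other arrays and that of 582.3 for P4ha1 above 3 of 7. It was among the dimmer arrays, with 4632 probes detected (20.6%) and a raw signal range of 4.94, where the arrays ran from 4.79 to 20.6. The excess for Slc16a3 was 2.28 on the log2 scale, and 1.31 with no background correction, 1.46 in the authors' normalised values and 1.74 with median scaling. For comparison, the oleate array numbered 4 exceeded the other oleate arrays in Slc16a3 by 4.36 to 6.16 over the same settings. The part that array brightness has in the stearate value was not tested further.

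**Figure D2:**
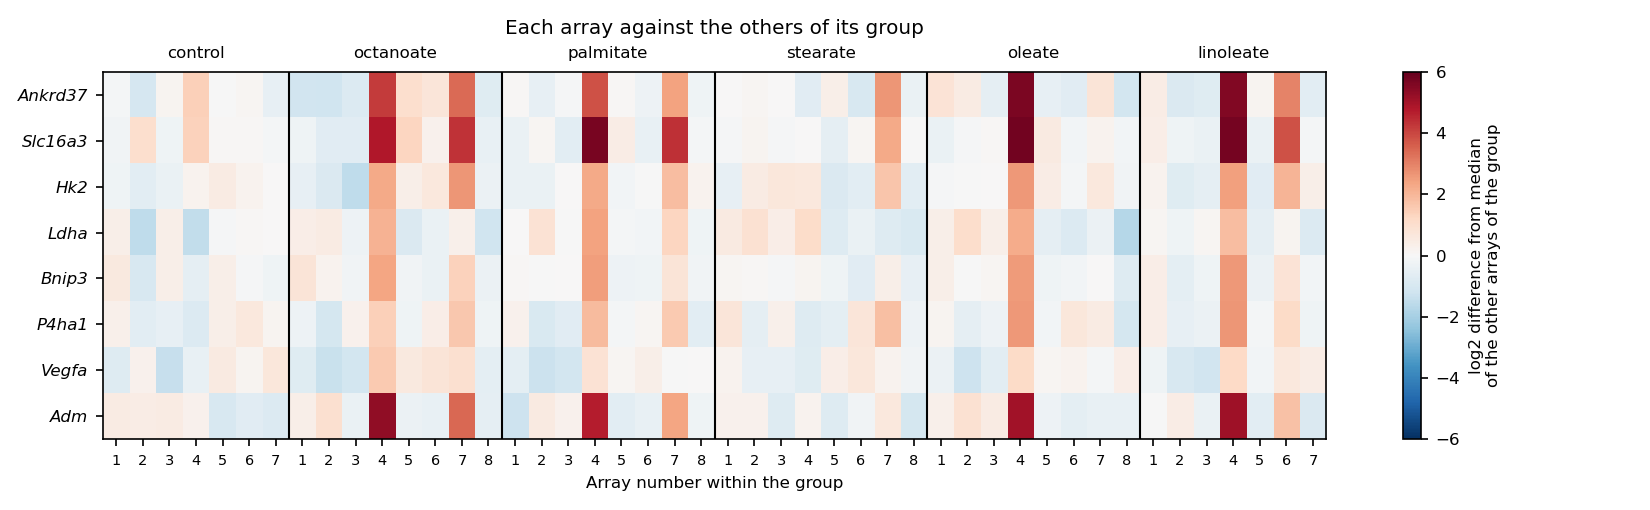
Heat map of 8 genes (vertical axis) over 46 arrays (horizontal axis, numbered within each group); colour is the log2 difference from the median of the other arrays of the group, red higher and blue lower. The arrays numbered 4 of octanoate, palmitate, oleate and linoleate are red throughout, up to 5.80 for Slc16a3 with oleate, where 2 of the 7 other arrays detected it, while those numbered 7 of octanoate and palmitate and number 6 of linoleate are red for Ankrd37, Slc16a3, Hk2 and Adm and paler for Ldha.

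Within groups the members moved together. Over 46 deviations from group means the 28 pairs of members had a median Pearson correlation of 0.81 (0.19 to 0.94) and a median Spearman correlation of 0.60 (-0.03 to 0.80). The closest pair was Ankrd37 and Slc16a3 at 0.94, and the most distant was Ldha and Vegfa at 0.19. Without the 2 arrays farthest from the median of the first gene the median was 0.74. The points share arrays, and genes noticed in the same arrays must correlate, so these values carry no p.

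The strength of the correlation differed by group. Its median over the 28 pairs was 0.85 with octanoate, 0.90 with palmitate, 0.88 with oleate, 0.92 with linoleate, 0.46 with stearate and -0.01 in control. The 4 groups with a high median are those with the extreme arrays numbered 4. With all arrays numbered 4 and 7 left out, 34 arrays remained and the median fell to 0.37 (-0.57 to 0.74), with 23 of 28 pairs above 0. Ankrd37, Slc16a3 and Hk2 then correlated at 0.66 to 0.74 with each other, Ldha and Bnip3 at 0.71, and Ldha and Vegfa at -0.57. The 34 arrays still hold linoleate 6, which is high for the first 3. Without it too, a choice made after seeing the data, 33 arrays remained, the median was 0.15, and Ankrd37 correlated at 0.09 with Slc16a3 and 0.46 with Hk2, and Slc16a3 at 0.40 with Hk2.

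**Figure D3:**
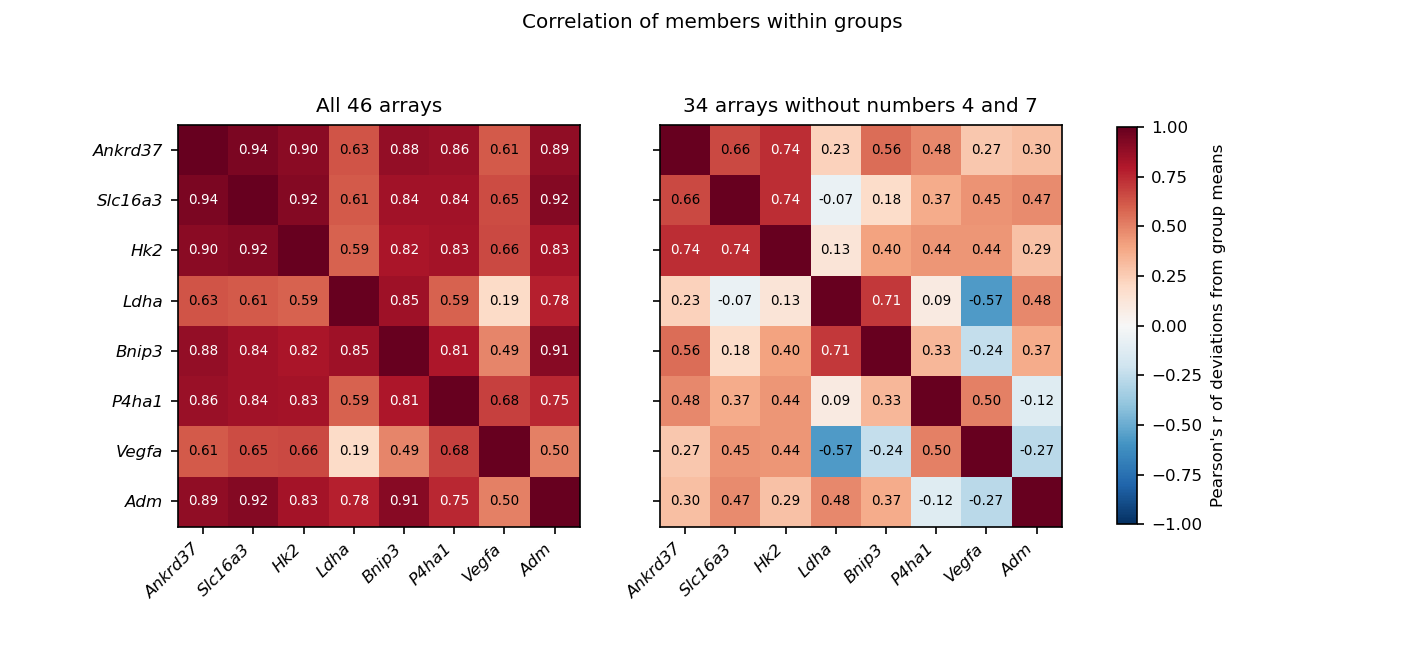
Pearson correlation of deviations from group means for each pair of 8 genes, over 46 arrays (left) and over the 34 arrays with other numbers than 4 and 7 (right); colour and printed values run from -1 to 1. All 28 pairs are above 0 on the left (0.19 to 0.94), and on the right 23 are, with Ldha and Vegfa at -0.57.

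Ldha and, less so, Bnip3 and Adm also moved with the arrays' own measures. Across deviations from group means Ldha correlated at 0.66 with the number of detected probes and at 0.57 with the signal range (the 95th percentile over the median of the raw signal). Bnip3 correlated at 0.40 and 0.35, Adm at 0.27 and 0.36, and Vegfa at -0.29 and -0.16. Ankrd37, Slc16a3, Hk2 and P4ha1 lay between 0.04 and 0.24 with both measures. Without the 2 arrays farthest in signal range, the correlations with it were 0.37 for Ankrd37, 0.35 for Slc16a3, 0.40 for Hk2 and 0.46 for Bnip3, and the Spearman correlation of Hk2 with it over all arrays was 0.38. The 4 arrays numbered 4 that were high detected 6070, 6669, 7048 and 6176 probes, and the stearate array numbered 4, which was not, detected 7220. With the signal range as a covariate the median correlation of members was 0.81, as without it.

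Between groups, few of these differences exceeded the spread of the arrays. The 5 members not picked for their array pattern and passing the filter were tested (limma, two-sided, Benjamini-Hochberg over 7182 genes, threshold 0.05). These 5 were also listed with earlier results of these data known, which their p-values do not allow for. P4ha1 rose 2.22-fold with octanoate against control (log2 change 1.15 ± 0.43 SE, adjusted p = 0.0453), with 8 of 8 and 5 of 7 arrays detecting it. That is 1 of 5 tested members beside 24.6% of all genes called in that comparison (11.5% higher), so the share is near the background and says nothing particular of the members. Leaving out 1 of 9 arrays in turn (control 2, 3, 4, 5 or 7, or octanoate 3, 4, 6 or 7) ended the call, with adjusted p up to 0.113 without octanoate 7. The call was also lost without the arrays numbered 4 and 7 (log2 change 0.67, adjusted p = 0.105) and with median scaling, no background correction, no detection filter or the authors' normalised values (adjusted p = 0.0633 to 0.102).

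P4ha1 had similar estimates with palmitate (1.20 ± 0.43, adjusted p = 0.0643) and stearate (1.12 ± 0.43, adjusted p = 0.0792) and did not pass the limma test there. Against control, 0 of 5 tested members were called with palmitate, stearate, oleate or linoleate, where 11.2%, 13.0%, 0.571% and 0.473% of all genes were called. At an unadjusted p under 0.05 the numbers were 2 (P4ha1 and Vegfa), 2 (P4ha1 and Vegfa), 0 and 0. The fatty acid comparisons share the control arrays, so their values are set side by side only. Vegfa stood at 0.59 ± 0.34 with octanoate, 0.73 ± 0.34 with palmitate and 0.70 ± 0.34 with stearate (adjusted p = 0.209, 0.162 and 0.172). Adm had its largest estimate with palmitate, 1.35 ± 0.78 (adjusted p = 0.277), which was 0.79 at the lowest with 1 array left out. Bnip3 lay between 0.00 and 0.58 and Ldha between 0.10 and 0.51 over the 5 acids, with adjusted p of 0.368 or more.

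Without the arrays numbered 4 and 7 the estimates of Bnip3 against control were -0.01, -0.05, -0.19 and -0.01 with octanoate, palmitate, stearate and oleate. Those of Ldha were -0.39 with octanoate, -0.24 with palmitate and -0.33 with oleate. P4ha1 kept 0.91 with stearate, which limma then called (adjusted p = 0.0371), beside 705 of all 7182 genes. Its oleate estimate was -0.20. The Adm estimate was 0.39 with palmitate, below its 0.47 with stearate, and -0.30 with octanoate.

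**Figure D4:**
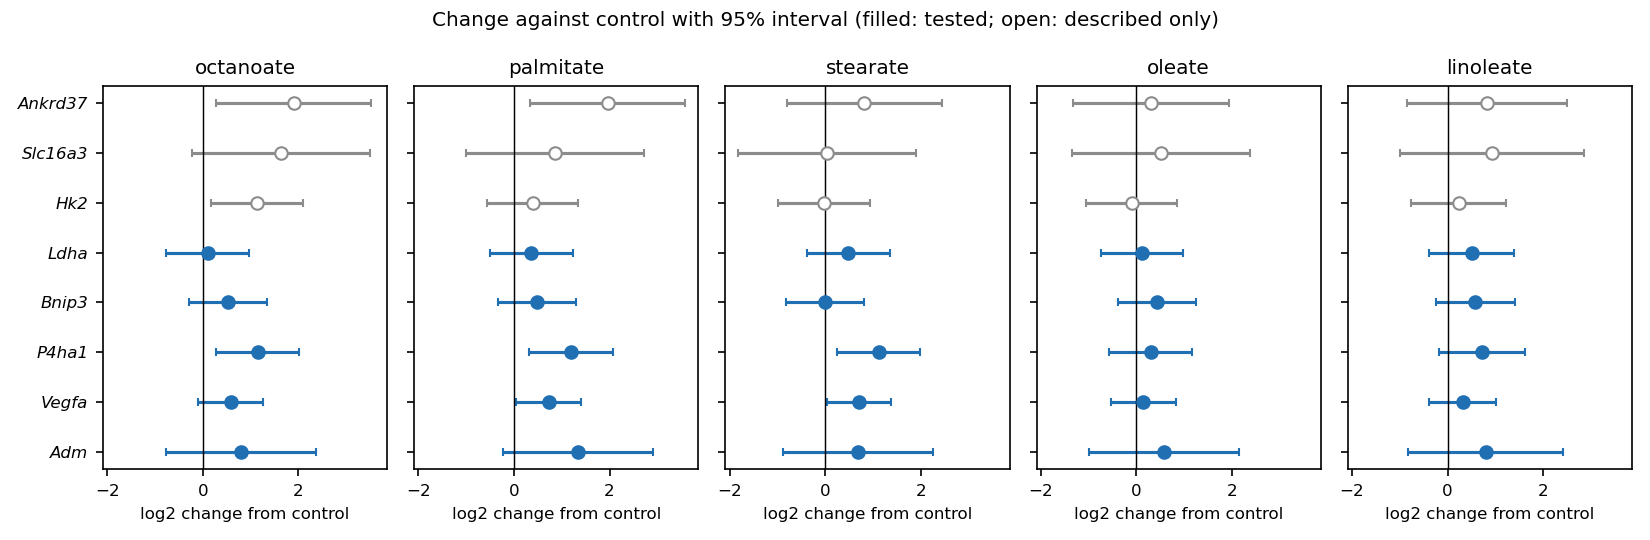
Log2 change from control (horizontal axis) with its 95% interval for 8 genes (vertical axis) and 5 fatty acids (panels); filled points were tested, open points are described only. The P4ha1 points of octanoate, palmitate and stearate lie at 1.12 to 1.20, and those of Bnip3 and Ldha lie between 0.00 and 0.58 with intervals that include 0. Slc16a3 and Hk2 were each detected in 1 of 7 control arrays.

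In all, 4 pairs of acids that differ by chain length or by double bonds were compared at the same dose and time. Adjusted over 7182 genes within each pair, limma called 0 of 5 members in all 4, beside 2.3% of genes for palmitate against octanoate, 4.22% for stearate against palmitate, 6.98% for oleate against stearate and 0.0% for linoleate against oleate. At an unadjusted p under 0.05 the count was 0 in each as well. For the longer chain of palmitate against octanoate, the 95% interval of the P4ha1 difference ran from -0.80 to 0.89 and that of Bnip3 from -0.83 to 0.74. For stearate against palmitate the P4ha1 interval ran from -0.92 to 0.77. For the double bond of oleate against stearate P4ha1 differed by -0.82 (-1.66 to 0.03, adjusted p = 0.25), and without the arrays numbered 4 and 7 by -1.11 (adjusted p = 0.00591). In that smaller set of arrays limma called 727 of all 7182 genes for this pair. For the second double bond of linoleate against oleate the P4ha1 interval ran from -0.45 to 1.29.  In none of the 9 comparisons did the groups of a member fail to overlap (0 of 8). The share of all genes that lay wholly higher was 2.94% for octanoate, 1.66% for palmitate, 0.446% for stearate, 0.223% for oleate and 0.209% for linoleate against control. Between acids it was 0.501% for palmitate against octanoate, 0.181% for stearate against palmitate, 0.362% for oleate against stearate and 0.0% for linoleate against oleate. In the same order, the genes that lay wholly lower numbered 246, 81, 94, 2 and 7 of 7182 against control, and 9, 33, 18 and 1 between acids. The test for any fatty acid called 28.8% of all genes and 0 of 5 members (P4ha1 adjusted p = 0.0923, the 1 member with an unadjusted p under 0.05).

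Of 59 further pathway genes in 3 lists, 35 passed the detection filter. Likeness was measured as the correlation of each gene's deviations from group means with the mean of those of Ankrd37, Slc16a3 and Hk2, over 46 arrays. Its median over 7174 other genes was -0.04 and its 99th percentile 0.78. The other tested members reached 0.90 (Adm), 0.87 (Bnip3 and P4ha1), 0.66 (Vegfa) and 0.63 (Ldha). Of the 35 pathway genes, 31 lay above 0 and 15 above 0.7, where 156 of the 7174 genes lay above 0.7. The 3 genes were picked for their high arrays, so any gene high in the same arrays scores high. A gene detected in few arrays may also have passed the filter through those arrays. Of the pathway genes above 0.7, Ero1a and Narf were detected in 14 of 46 arrays, Pfkl in 15, Vldlr in 17 and Ndrg1 in 19. The numbers above 0.7 are thus a description and not a test of the pathway genes.

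In the oxygen-sensing system, 5 of 9 genes passed, with a median likeness of 0.52 and 0 above 0.7. Egln1, the main prolyl hydroxylase that senses oxygen and itself a HIF target, reached 0.67 and was detected in 20 of 46 arrays. It read 8.93, 8.64, 9.11 and 9.25 in the arrays numbered 4 of octanoate, palmitate, oleate and linoleate, and at most 7.32 in any array of another number. Vhl, which tags HIF-1 alpha for destruction, reached 0.66 and was detected in 45 arrays. Hif1a, the subunit itself, reached 0.52 but was detected in 16 arrays, so most of its levels lay near background. Egln2, another prolyl hydroxylase, stood at -0.36.

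Among HIF targets of glucose handling, 13 of 19 passed, with a median of 0.47 and 4 above 0.7. Pfkp, a phosphofructokinase, reached 0.87, Pgk1, phosphoglycerate kinase, 0.83 and Tpi1, triosephosphate isomerase, 0.81. Gapdh stood at 0.12 and Aldoc, an aldolase, at -0.02. Pgk1 read 13.33, 13.46, 13.19 and 13.40 in the arrays numbered 4 of octanoate, palmitate, oleate and linoleate, beside 11.61 in that of control and 12.70 in that of stearate.

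Among HIF targets of other roles, 17 of 31 passed, with a median of 0.79 and 11 above 0.7. Ero1a, an oxidase of disulphide formation, reached 0.93 and Higd1a, a mitochondrial protein of the inner membrane, 0.91. Ndrg1, a stress-induced gene, reached 0.77 and read 10.23, 10.34, 10.25 and 10.16 in the same 4 arrays, against at most 7.97 in arrays of other numbers. Lox, a collagen cross-linking enzyme, stood at -0.35. The lists were drawn up with earlier results of these data known, and their medians describe them only.

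**Figure D5:**
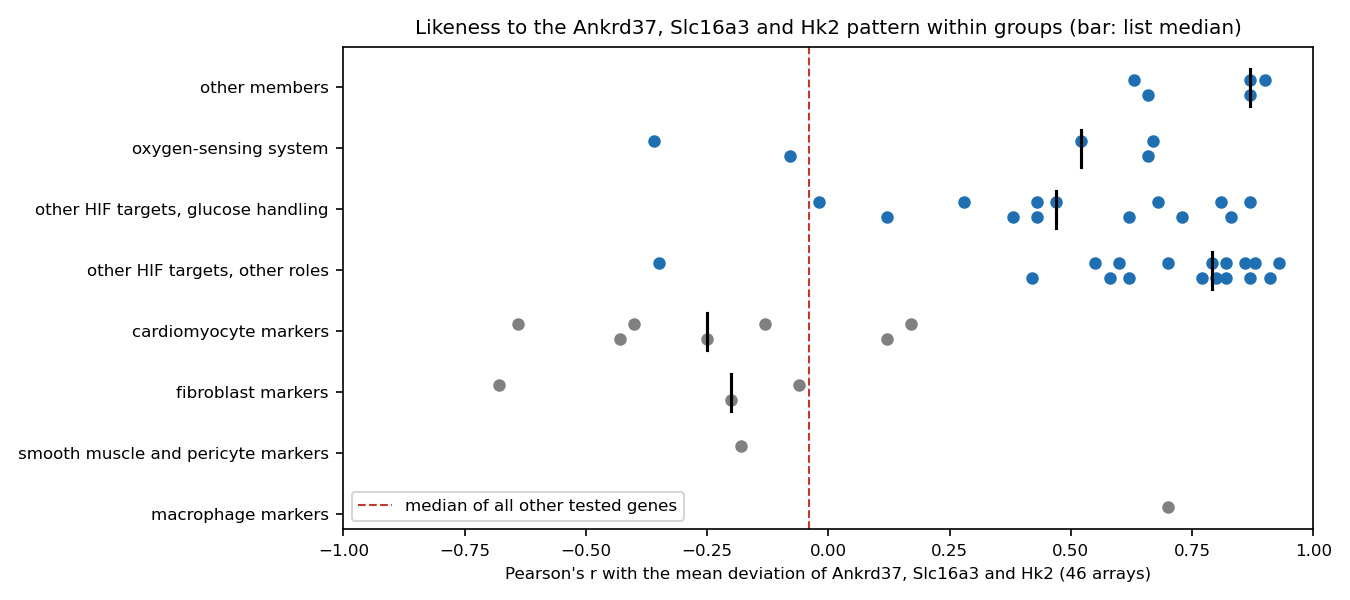
Pearson correlation (horizontal axis) of each gene's deviations from group means with the mean of Ankrd37, Slc16a3 and Hk2 over 46 arrays, by gene list (vertical axis); points are genes, bars list medians, and the dashed line the median of 7174 genes. HIF targets of other roles have a median of 0.79, those of glucose handling 0.47 and heart muscle markers -0.25.

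Over all genes, those most like the 3 were Slc16a6 (0.94), Ero1a (0.93), Entpd2 (0.93), Cd93 (0.92), Eno2 (0.91), Higd1a (0.91), Rlf (0.91), Map3k1 (0.90), Fstl3 (0.90) and Smox (0.90). Slc16a6, a monocarboxylate transporter family member, had 0.90 over the 34 arrays without numbers 4 and 7, and Cd93, a surface receptor known from endothelial and myeloid cells, had 0.83. Eno2, an enolase, had 0.56 there. Without linoleate 6 too, the values over 33 arrays were 0.73 for Slc16a6, 0.67 for Cd93 and -0.04 for Eno2, and 0.06 for Ero1a and 0.24 for Higd1a. Those of the pathway lists over these arrays are not given. Above 0.8 stood 51 genes of 7174, and 89 lay below -0.7. Ranked by the single genes, Ero1a led for Ankrd37 (0.92), Eno2 for Slc16a3 (0.93) and Slc16a6 for Hk2 (0.92), and Ell entered the leading 5 for Hk2 (0.87).

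Between groups, a few of these pathway genes passed the test. With octanoate, 5 of 35 rose and 1 fell against control (24.6% of all genes called). Among those that rose, Cited2, a HIF-induced regulator that limits HIF activity, rose 2.61-fold (limma adjusted p = 0.011) and Vhl 2.57-fold (adjusted p = 1.33e-05). Bhlhe40 and Rora, both transcription factors, rose 2.15-fold and 1.83-fold (limma adjusted p = 0.0153 and 0.0338). Aldoc fell by 1.29 on the log2 scale (adjusted p = 0.000138).

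With palmitate, 3 of 35 rose and 1 fell (11.2% of all genes called). Hmox1, a heme-degrading enzyme (3.64-fold, adjusted p = 0.0083), and Cited2 (3.31-fold, adjusted p = 0.00394) were among those that rose, and Aldoc fell by 0.87 (adjusted p = 0.0169). With stearate, limma called 3 of 35, beside 13.0% of all genes. There Aldoc fell by 1.23 (adjusted p = 0.000677) and Ddit4, an inhibitor of growth signalling, by 0.87 (adjusted p = 0.0345). With oleate and with linoleate, limma called 0 of 35, beside 0.571% and 0.473% of all genes, and 1 and 4 stood at an unadjusted p under 0.05. In each comparison with control the called share of the pathway genes was near or below that of all genes. Aldoc was 2.35-fold higher with oleate than with stearate (log2 change 1.23, adjusted p = 0.000574), and Vhl was lower with palmitate than with octanoate (log2 change -0.83, adjusted p = 0.0222), a call that was lost under median scaling (log2 change -1.03, adjusted p = 0.194), with no detection filter (adjusted p = 0.0722) and without octanoate array 6 or 7 or palmitate array 2 or 3. For palmitate against octanoate, whose arrays of the same number deviated together, 2 of 35 pathway genes passed with the array number as a block, beside 403 of all 7182 genes. Under median scaling, 0 of 35 were called with palmitate, with estimates of 1.95 for Hmox1, 1.78 for Cited2 and -0.87 for Aldoc, beside 1.86, 1.73 and -0.87. Without the arrays numbered 4 and 7, the calls of Cited2 were lost with octanoate (0.74 beside 1.38) and palmitate (1.16 beside 1.73), as were those of Aldoc with palmitate (-0.72 beside -0.87), Rora (0.46 beside 0.87) and Ddit4 (-0.78 beside -0.87). The Rora call was also lost under median scaling, with no detection filter and with only the groups compared (limma adjusted p = 0.0941, 0.0857 and 0.0588), and that of Ddit4 with no detection filter and with only the groups compared (0.0773 and 0.0698). All 15 called values kept their sign under the 8 alternatives. The median change of the 17 targets of other roles was 0.82 with octanoate, 0.28 with palmitate, 0.00 with stearate, 0.13 with oleate and 0.35 with linoleate, beside -0.05 to -0.01 over all genes. Without the arrays numbered 4 and 7 these medians were 0.10, -0.09, -0.06, -0.11 and 0.07.

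Markers of cell types were placed on the same measure of likeness. The 7 heart muscle markers had a median likeness of -0.25, the lowest being Pln, a regulator of calcium uptake, at -0.64. Of the 7, 2 lay above 0, Tnnt2 at 0.17 and Myh6 at 0.12. The 3 fibroblast markers had a median of -0.20, with Col1a2, a collagen chain, at -0.68, and Cspg4, a pericyte marker, stood at -0.18. Cd68, a lysosomal protein used as a macrophage marker, reached 0.70, while Cd163 and Ptprc, which define macrophages and leukocytes, were detected in 0 of 46 arrays. Cd68 also rose with octanoate against control (2.17-fold, limma adjusted p = 8.07e-05, detected in 8 of 8 and 1 of 7 arrays). With palmitate it rose 1.56-fold (limma adjusted p = 0.0336, detected in 4 of 8 and 1 of 7 arrays). Its control levels were mostly not above background, so the sizes of these folds are uncertain. Pln and Tnnt2, a troponin of heart muscle, fell with octanoate (log2 change -1.64 and -0.48, adjusted p = 0.00305 and 0.000545). With stearate Cspg4 fell by 2.0 on the log2 scale (adjusted p = 1.26e-05), to a level that 2 of 8 arrays detected, and Dcn, a fibroblast proteoglycan, by 1.14 (adjusted p = 0.0455), and with palmitate Cspg4 fell by 0.99 and Myl2, a myosin light chain, by 0.98 (adjusted p = 0.0296 and 0.0333). Summed raw signals of the macrophage markers ran from 438 to 627 in control, 486 to 819 with octanoate, 456 to 863 with palmitate, 402 to 656 with stearate, 401 to 792 with oleate and 379 to 712 with linoleate. Those of heart muscle ran from 151625 to 243710 in control, 76915 to 256963 with octanoate, 86457 to 233898 with palmitate, 76224 to 294809 with stearate, 85913 to 244211 with oleate and 66463 to 214798 with linoleate, with medians of 201341 in control and 104753 to 139596 with the acids. These sums are not normalised and the arrays differed in brightness, with a median signal range of 13.7 in control and 7.01 to 10.7 with the acids. The mean normalised log2 level of the 7 heart muscle markers had a median of 13.20 in control, 12.62 with octanoate, 12.85 with palmitate, 13.31 with stearate, 12.95 with oleate and 12.94 with linoleate, so that stearate stood above control here and below it in raw signal. In whole-culture RNA fewer cells of a type and less RNA per cell cannot be told apart. The part of cell makeup in the array pattern was not tested.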

How the data were processed

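RNA of 46 samples was hybridised to 1-colour Illumina rat BeadChips, whose beads carry oligonucleotide probes. Groups were taken from the labels. The deposited table gives each probe's intensity per array, with no normalisation between arrays per the file headers. The submitters' processing notes name BeadStudio (version 3). The deposited detection p-value of each probe changes in steps of 1 over 825. The authors' second table was found, from its values, to be quantile-normalised intensity (Spearman correlation 1.0 with the own array for 46 of 46).

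Intensities were background-corrected with limma 3.58.1 in R 4.3.3 (normal-exponential, offset 16), quantile normalised and log2-transformed. The filter kept 7312 of 22517 probes, those whose detection p-value fell below 0.01 on 7 or more arrays, and the brightest probe stood for its gene (7182). Probes were named through the RefSeq table of GRCr8 by accession (6330), gene number (5190), symbol (4363) or synonym (1404), 5033 kept the file's symbol and 197 had none. One model of 6 group means was fitted over 46 arrays, and 95% intervals come from it. It was also run on simulated data with independent noise in each gene and array. That run does not cover arrays that deviate together or single extreme arrays, both of which occur here. Precision is limited by how many arrays each group has.

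The members and lists were chosen with earlier results of these data known. Named beside the members are pathway and marker genes past the test and the genes most like Ankrd37, Slc16a3 and Hk2. Arrays of the same number deviated together, with all 8 correlations over 0.1, in 3 comparisons. They ran from 0.334 to 0.875 for palmitate against octanoate, from 0.14 for stearate against palmitate (highest 0.754), and from 0.178 for oleate against stearate (highest 0.853). For linoleate against oleate, 6 of 7 correlations were over 0.1, and they ran from -0.135 to 0.951. In the comparisons with control 3 or 4 of 7 were over 0.1. Alternatives were median scaling, no background correction, the signal range as a covariate, no detection filter, a fit of only the groups compared, a block for the array number, the authors' normalised values, and leaving out the arrays numbered 4 and 7 or each array in turn. For correlations, linoleate 6 was also left out, an alternative added after the data were seen. Figures were drawn with matplotlib 3.10.9. The values of 1 pathway gene, counted in the totals, are not reported here.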

Additional observations from a re-analysis of the deposited data

Results flagged for a closer look

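Of 30 sets (5 tested genes in 6 groups), 8 had a single array so far from the next that Dixon's ratio of gap to range passed its critical value (0.568 for 7 arrays, 0.526 for 8). Ankrd37, Slc16a3 and Hk2 were picked for high single arrays and were not put to this test. Chance gives about 1 in 20 such sets, and the 5 genes share arrays with each other and with those 3, so the 8 are not independent. The share of such sets over all genes is not given here, so the 8 say nothing particular of these genes. All 8 were the highest array of the group, and all carry the number 4.

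The oleate array numbered 4 accounted for 3 of them. It read 14.71 for Bnip3 (next 12.51), 11.42 for Adm (next 7.31) and 10.31 for P4ha1 (next 8.40). The linoleate array numbered 4 read 14.66 for Bnip3 (next 12.91), 11.57 for Adm (next 8.25) and 13.27 for Ldha (next 11.57). The palmitate array numbered 4 read 14.62 for Bnip3 (next 12.87), and the octanoate array numbered 4 read 13.02 for Ldha (next 11.40).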

How the results depend on the processing

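The member results were recomputed under 8 alternatives, where 351 values kept their direction and side of the threshold, 25 changed sign, 14 newly passed and 5 no longer passed. No called value changed sign, and the causes of the shifts were not tested. The number of arrays and, for Slc16a3, Hk2 and Adm, signals near background limit the precision.

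With octanoate the P4ha1 call was lost with no background correction (0.78, adjusted p = 0.0675), median scaling (1.37, adjusted p = 0.092), no detection filter (adjusted p = 0.102), without the arrays numbered 4 and 7 (adjusted p = 0.105) and in the authors' normalised values (0.84, adjusted p = 0.0633), leaving 0 of 5. Leaving out 1 array at a time gave 0 or 1 member, a P4ha1 change of 0.97 to 1.32 and adjusted p of 0.0232 to 0.113. With palmitate 1 member of 5 passed with only the groups compared (711 of all 7182 genes) and with signal range as a covariate (1513 of all genes). With stearate 1 passed with only the groups compared (634 of all genes) and 1 without the arrays numbered 4 and 7 (705). Without those arrays 1 also passed for oleate against stearate (727 of all genes) and for any fatty acid (1956). The member was P4ha1 each time, and 1 of 5 beside these numbers says nothing particular of the members. Leaving out 1 array gave 0 to 1 member with palmitate (P4ha1 without palmitate 2, oleate 4 or linoleate 4), with stearate (without oleate 4) and for any fatty acid (without oleate 4 or linoleate 4). The calls among all genes in these fits are not given here.

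With the array number as a replicate block, members past the test, of 5, were 2 with octanoate (P4ha1 and Vegfa), 3 with palmitate (Adm too), 2 with stearate and 2 for any fatty acid. Other pathway genes, of 35, were 13, 9 and 5 with octanoate, palmitate and stearate. The block also raised the calls among all 7182 genes there, to 2547, 1660 and 1501 from 1765, 803 and 937. The pathway counts are thus near or below the share of all genes. In these comparisons with control, 3 or 4 of 7 same-numbered pairs correlated over 0.1, and the labels do not say what arrays of the same number share. For palmitate against octanoate the block gave 2 pathway genes against 1, and 403 of all genes against 165. It changed no member's call in the 3 comparisons where all 8 same-numbered pairs correlated over 0.1.

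Other pathway genes past the test were 0 with palmitate under median scaling. With stearate they were 5 with signal range as a covariate, where 1325 of all 7182 genes were called. For palmitate against octanoate they were 0 with median scaling, 0 with no detection filter and 2 without the arrays numbered 4 and 7 (284 of all genes). For stearate against palmitate median scaling gave 1 (1034 of all genes). For oleate against stearate it gave 3 (898 of all genes), and leaving out the arrays numbered 4 and 7 gave 4 (727 of all genes). Leaving out 1 array gave 4 to 8 with octanoate, 4 to 5 with palmitate, 2 to 5 with stearate (5 without control 1, control 3 or the array numbered 4 of octanoate, oleate or linoleate), 0 to 1 for palmitate against octanoate (0 without octanoate 6 or 7 or palmitate 2 or 3) and 1 to 3 for oleate against stearate (3 without oleate 4). The median correlation of members was 0.37 without the arrays numbered 4 and 7, 0.15 without linoleate 6 as well (chosen after seeing the data), 0.77 to 0.82 with 1 array left out and 0.81 to 0.83 elsewhere.

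Median scaling moved the median of all genes to 0.17 with octanoate, -0.41 with stearate, -0.18 for palmitate against octanoate, -0.43 for stearate against palmitate and 0.39 for oleate against stearate. It changed the calls of all genes with stearate from 301 higher and 636 lower to 36 and 1400, and with octanoate from 827 and 938 to 791 and 249. The uncalled values that changed sign under it were Vegfa (-0.07), P4ha1 (-0.18) and Ldha (-0.05) for palmitate against octanoate, Bnip3 with stearate (-0.36), Ldha for stearate against palmitate (-0.4), and Adm (0.34) and Ldha (0.05) for oleate against stearate. Adm in that comparison was 0.08 with no background correction and 0.06 in the authors' normalised values, and Bnip3 with stearate was -0.0 in both.

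Without the arrays numbered 4 and 7, the uncalled values that changed sign against control were Bnip3 with octanoate (-0.01), palmitate (-0.05), stearate (-0.19) and oleate (-0.01), Adm with octanoate (-0.3) and oleate (-0.03), P4ha1 with oleate (-0.2), and Ldha with octanoate (-0.39), palmitate (-0.24) and oleate (-0.33). Between acids they were Vegfa (0.25), Adm (0.08) and P4ha1 (0.31) for stearate against palmitate, and P4ha1 (-0.07) for palmitate against octanoate.

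With 1 array left out, uncalled values that crossed 0 ran as follows. Vegfa ran from -0.05 to 0.3 with oleate, -0.01 to 0.32 for palmitate against octanoate, -0.17 to 0.13 for stearate against palmitate and -0.0 to 0.35 for linoleate against oleate. Bnip3 ran from -0.13 to 0.09 with stearate, -0.36 to 0.22 for palmitate against octanoate and -0.2 to 0.48 for linoleate against oleate. Adm ran from -0.03 to 0.73 with oleate, -0.01 to 1.13 for palmitate against octanoate, -0.71 to 0.05 for oleate against stearate and -0.48 to 0.83 for linoleate against oleate. P4ha1 ran from -0.02 to 0.47 with oleate, -0.19 to 0.23 for palmitate against octanoate and -0.29 to 0.16 for stearate against palmitate. Ldha ran from -0.17 to 0.26 with octanoate, -0.16 to 0.35 with oleate, -0.01 to 0.53 for palmitate against octanoate and -0.01 to 0.39 for stearate against palmitate.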
